A study of Mus musculus with 2 samples.

Results

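The 10 genes described here encode the CXC and CX3C chemokines Cxcl1, Cxcl2, Pf4, Cxcl9, Cxcl10, Cxcl12, Cxcl13, Cxcl14, Cxcl16 and Cx3cl1, taken by name from the 19357 genes that the deposited matrices list. They were followed through the cells of mouse aorta, in every cell class that the authors named. The animals were male Apoe-/- mice on C57BL/6, aged 17 weeks, which lack apolipoprotein E and develop atherosclerosis. From 6 weeks of age the diabetic group was injected with streptozotocin, a toxin of insulin-producing cells, at 55 mg/kg on each of 5 days. The control group received citrate vehicle on the same schedule, and both groups were followed for 10 weeks. Each group is 1 library made from the mixed aortic cells of 4 mice, so all differences between diabetic and control cells have no replicate check, and intervals cover counting error only. Calcein-positive, 7AAD-negative cells were sorted after enzymatic digestion and an incubation of the pools at body temperature, and the share of each class, the level of inducible genes or both can depend on these steps.

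Chemokines are small secreted proteins that guide leukocytes through G protein-coupled receptors and are held on cell surfaces by glycosaminoglycans. The CXC members carrying an ELR motif, here Cxcl1 and Cxcl2, attract neutrophils through Cxcr2, Cxcl9 and Cxcl10 attract activated T cells and natural killer cells through Cxcr3, and Cxcl12 retains leukocytes through Cxcr4. Cxcl16 and Cx3cl1 are made as membrane-anchored proteins that can be shed, and in the artery wall chemokines are known for bringing monocytes and T cells into plaques.

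The annotation covered 3060 control and 2524 diabetic cells in 13 classes, holding 12390769 and 11833577 unique molecular identifiers (UMIs, each counting 1 captured transcript molecule). Median depth was 3760 UMIs per control cell and 4477.5 per diabetic cell. The 7 classes with at least 50 cells in each library were compared: endothelial cells (ECs, 366 control and 228 diabetic cells), the smooth muscle classes VSMCs-1 (134 and 159) and VSMCs-2 (496 and 856), the fibroblast classes Fib-1 (386 and 245), Fib-2 (907 and 533) and Fib-3 (117 and 67), and macrophages (Mac, 510 and 229). Foam cells (35 and 17), monocyte-derived dendritic cells (MoDC, 27 and 30), monocytes (Mono, 9 and 19), NKT cells (32 and 51), T cells (13 and 60) and B cells (28 and 30) are given as levels without a ratio. The 5 markers listed here for each class were above their pooled level in the classes given another list, in both libraries. The exception was Mono, where Flt3 and Cd209a were not above it. Related classes, such as Mac and Foam cells, shared a list and were not set against each other. The libraries shared 15 cell barcodes, 8 of them annotated in both, and no call changed when these were left out except that Cxcl1 in Fib-3 passed the 1.5-fold size rule used below. Haemoglobin made up 0.217% of control and 1.14% of diabetic annotated UMIs, and 4.61% in diabetic Fib-1.

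On GRCm38 (mm10), 6 of the 10 genes lie on chromosome 5. Cxcl1 (chr5:90891241-90893115) and Cxcl2 (chr5:90903871-90905938), both on the plus strand, are separated by 10755 bases. Pf4 lies 117857 bases before Cxcl1, and Cxcl9 and Cxcl10, both on the minus strand, are 18558 bases apart. Cxcl12 is on chromosome 6, Cxcl14 on chromosome 13, Cxcl16 on chromosome 11 and Cx3cl1 on chromosome 8. Cxcl10 overlaps Art3 and Cxcl16 overlaps Zmynd15 on the opposite strand, and no source used here states whether the counting used strand. The transcripts of Cxcl2 share 161 runs of 31 bases with those of Cxcl3, so reads may be split between these genes or dropped, and Cxcl2 levels carry that uncertainty.

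RefSeq start-site windows on GRCm38.p6 were at hand for 9 of the 10 genes, with none for Cxcl16. They were searched on both strands of the 250 bases before each start for a form of the NF-kappaB motif, GGGNNNTTCC, for the AP-1 motif TGANTCA, because AP-1 is the subject of the series, and for a form of the interferon-stimulated response element, GAAANNGAAA. These were present in 4.65%, 6.75% and 2.98% of 32851 promoters. The windows of 4 genes are shown 5′ to 3′, up to the first annotated exon, with motif matches on either strand in capitals. Cxcl1 and Cxcl2 are shown as neighbours that were highest in different classes, Cxcl10 as the window holding all 3 motifs, and Cxcl12 as a fibroblast member with none. They are Cxcl1 at chr5:90890995-90891240 (plus strand), Cxcl2 at chr5:90903649-90903870 (plus strand), Cxcl10 at chr5:92348890-92349139 (minus strand) and Cxcl12 at chr6:117168285-117168534 (plus strand).
Cxcl1: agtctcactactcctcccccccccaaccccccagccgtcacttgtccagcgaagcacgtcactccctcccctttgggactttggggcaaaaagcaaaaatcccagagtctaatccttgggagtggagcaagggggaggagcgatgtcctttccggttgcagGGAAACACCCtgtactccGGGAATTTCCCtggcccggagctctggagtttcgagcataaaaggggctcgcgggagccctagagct
Cxcl2: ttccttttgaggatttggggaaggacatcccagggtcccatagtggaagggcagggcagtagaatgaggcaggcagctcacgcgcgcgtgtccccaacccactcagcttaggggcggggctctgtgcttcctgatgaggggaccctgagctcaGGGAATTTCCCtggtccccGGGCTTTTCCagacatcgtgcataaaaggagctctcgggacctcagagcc
Cxcl10: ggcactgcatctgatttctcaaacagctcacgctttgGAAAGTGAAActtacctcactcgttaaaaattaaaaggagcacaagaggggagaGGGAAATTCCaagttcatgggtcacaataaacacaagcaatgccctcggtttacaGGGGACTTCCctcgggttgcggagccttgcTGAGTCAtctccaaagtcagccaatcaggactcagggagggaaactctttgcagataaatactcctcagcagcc
Cxcl12: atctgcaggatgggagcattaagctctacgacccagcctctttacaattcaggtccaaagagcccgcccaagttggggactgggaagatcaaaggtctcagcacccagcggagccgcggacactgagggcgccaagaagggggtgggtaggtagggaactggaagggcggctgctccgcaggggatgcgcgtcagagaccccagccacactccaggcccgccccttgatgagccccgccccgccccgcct

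Cxcl1 and Cxcl2 each held 3 NF-kappaB matches. In each gene a pair of them overlaps, 1 on each strand of the same stretch. The pair lies within a run of 14 bases, GGGAATTTCCCTGG, that the windows of both genes share. The run starts 71 bases before the RefSeq start of Cxcl1 and 97 bases before that of Cxcl2. The third match lies 89 to 80 bases before the start in Cxcl1, on the minus strand, and 78 to 69 bases before it in Cxcl2. Cxcl10 held NF-kappaB matches from 159 and 104 bases before the start, an AP-1 match from 74 bases and an interferon element match from 213 bases. Counted the same way, overlaps and both strands included, at least 2 NF-kappaB matches were present in 0.146% of all promoters. Cxcl14 held 1 interferon element match, and the windows of Cxcl9, Cxcl12, Cxcl13, Pf4 and Cx3cl1 held none of these letters. A match describes the sequence and does not show binding.

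**Figure D1:**
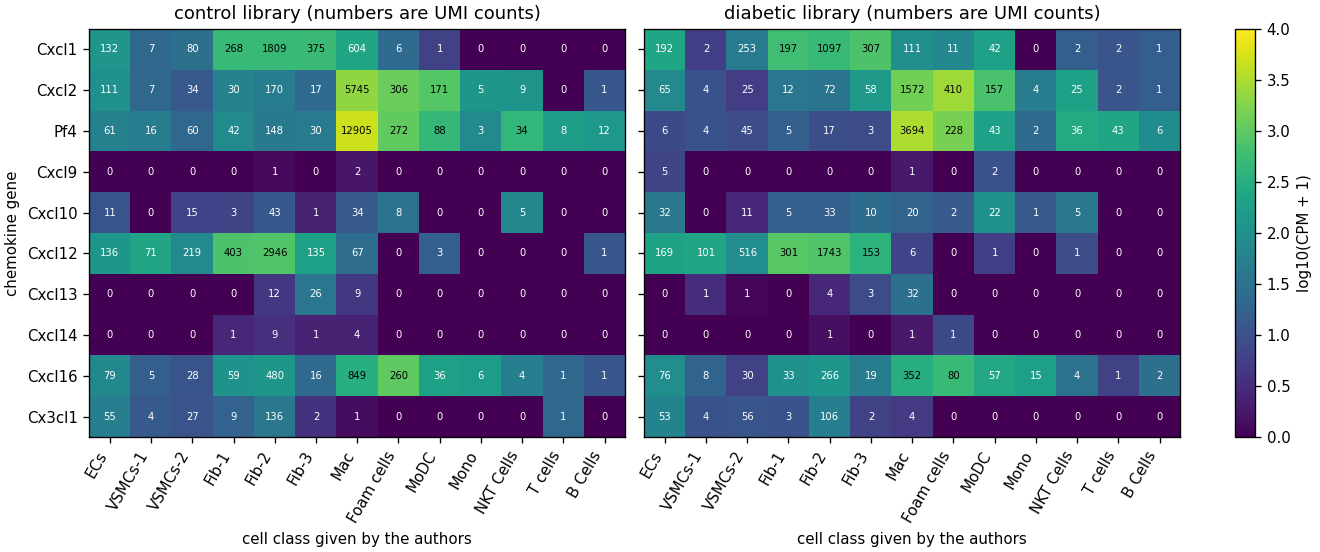
Level of each chemokine (rows) in each of the 13 cell classes (columns) as log10(CPM + 1), control library on the left and diabetic on the right, with the UMI count written in each square. Pf4 is brightest in Mac, Cxcl2 in control Mac and in diabetic Foam cells, Cxcl12 and Cxcl1 in fibroblast classes and Cxcl16 in Foam cells, and Cxcl9 and Cxcl14 have 11 and 18 UMIs in all.

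Levels are given in CPM, a gene's UMIs scaled to the UMI total of its class. The genes fell into few sources. The fibroblast classes held 87.5% of Cxcl12 UMIs in the control library and 73.5% in the diabetic one, 74.7% and 72.2% of Cxcl1 and 62.6% and 48.7% of Cx3cl1. Mac held 94.3% and 89.4% of Pf4, 87.0% and 65.3% of Cxcl2, and 46.5% and 37.3% of Cxcl16. The class make-up of the libraries differed, and smooth muscle held 7.28% of control and 20.6% of diabetic Cxcl12. The classes were named by the authors from the same transcripts, so differences between classes are a description.

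**Figure D2:**
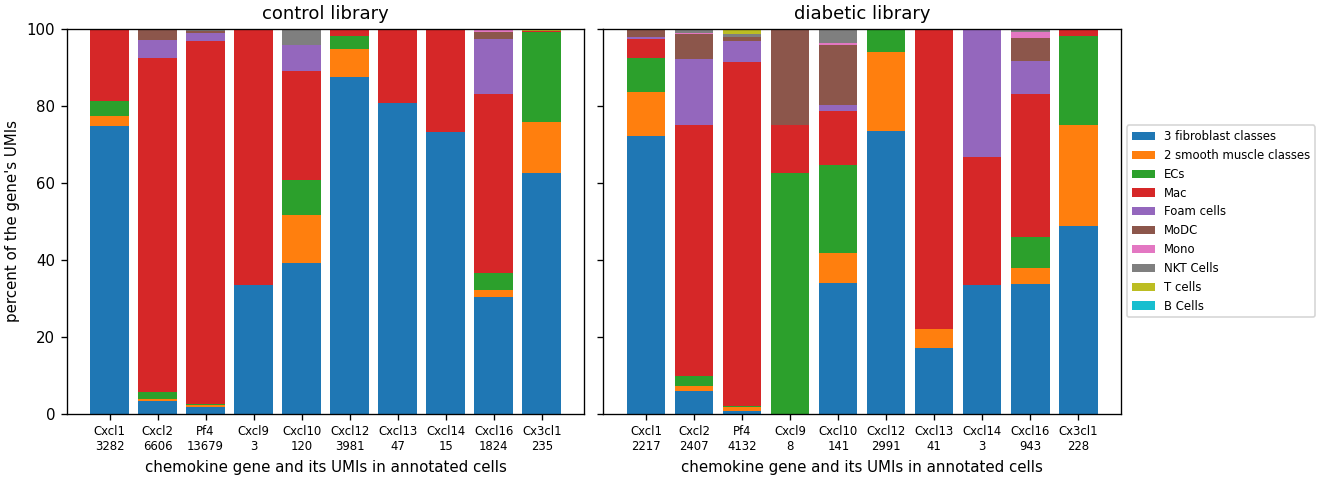
Percent of each chemokine's UMIs (y axis) found in each group of cell classes (colours), with the number of UMIs under each gene, for the control (left) and diabetic (right) library. Pf4 and Cxcl2 come mainly from Mac, at 94.3% and 87.0% in the control library, whereas Cxcl12 and Cxcl1 come mainly from fibroblasts, at 87.5% and 74.7%.

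Of 70 gene and class pairs, 38 had at least 30 UMIs over both libraries. Calling a pair where the levels also differed by at least 1.5-fold gave 8 pairs higher and 12 lower in diabetic cells, and 18 were not called. The 95% counting interval of the ratio left out 1 in all called pairs but Cxcl2 in Fib-1. In ECs, 3 of 7 measured members were higher and 1 lower, where 8.22% and 8.53% of all genes tested were. In Mac 1 of 7 was higher and 4 lower, beside 13.9% and 9.37% of genes. Fib-3 had 3 of 5 higher and 1 lower, beside 8% and 13.6%, and VSMCs-2 had 1 of 6 higher and 3 lower, beside 8.63% and 5.69%. Fib-1 had 2 of 5 lower and none higher (background 11.9% lower and 7.86% higher), Fib-2 had 1 of 7 lower and none higher (6.17% and 8.59%), and the 1 member measured in VSMCs-1 was not called (10.4% and 8.74%).

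With the interval also required to leave out 1, these shares of all genes were 4.18% higher and 4.02% lower in ECs, 8.79% and 5.66% in Mac, 4.15% and 6.58% in Fib-3, 4.77% and 3.9% in VSMCs-2, 3.45% and 5.26% in Fib-1, 5.43% and 3.62% in Fib-2 and 3.23% and 4.82% in VSMCs-1. The median log2 ratio of the measured members was 0.30 in ECs (all genes tested -0.03), -0.59 in Mac (0.06), 1.03 in Fib-3 (-0.08), -0.46 in VSMCs-2 (0.02), -0.19 in Fib-1 (-0.08), and 0.02 in Fib-2 (0.03). The direction of the median thus differed between classes, a difference that was not tested. A large ratio often rested on few cells, and the share of UMIs held by the richest cell is given where it did.

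**Figure D3:**
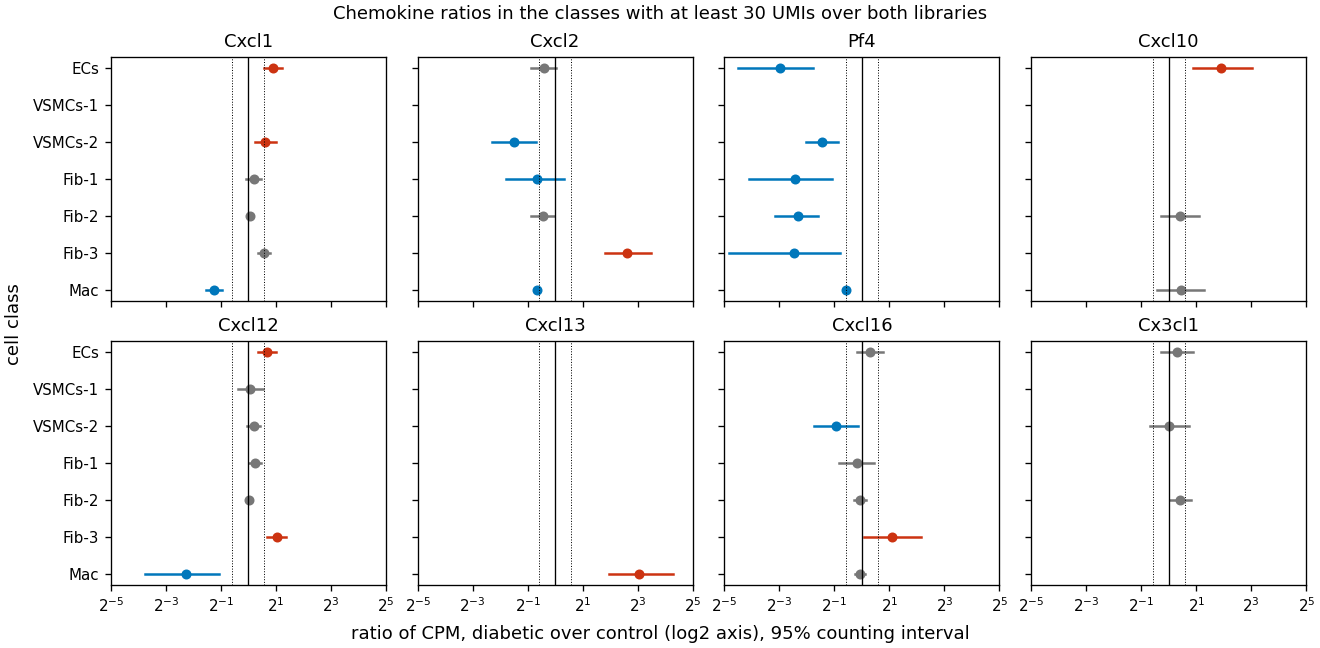
Ratio of diabetic to control CPM (x axis, log2 scale) for 8 chemokines in each compared class (y axis), with 95% counting intervals, for pairs with at least 30 UMIs. Red points are at least 1.5-fold higher, blue at least 1.5-fold lower and grey neither, and dotted lines mark 1.5-fold. Pf4 lies to the left of 1 in all 6 classes shown, whereas Cxcl1 and Cxcl12 lie to the right in ECs and to the left in Mac.

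Among the neutrophil-attracting ligands, Cxcl1 was a fibroblast transcript in both libraries. Its control level was 523 CPM in Fib-3 (95% Poisson interval 471 to 578), 514 CPM in Fib-1 (454 to 579) and 498 CPM in Fib-2 (475 to 521), 3 levels whose intervals overlap. Below them came Mac at 231 CPM (213 to 250), ECs at 121 CPM (101 to 143) and VSMCs-2 at 28.7 CPM (22.8 to 35.8). In diabetic cells Fib-3 led with 773 CPM (689 to 865), ahead of Fib-1 at 593 CPM (513 to 682) and Fib-2 at 519 CPM (488 to 550), which overlap. ECs at 225 CPM (194 to 259) then stood above Mac at 98.3 CPM (80.8 to 118), the reverse of their control order.

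In ECs, 52 of 366 control cells and 45 of 228 diabetic cells held a Cxcl1 UMI, and the level was 1.86-fold higher in diabetic ECs (interval 1.48 to 2.34). The richest diabetic cell held 17.7% of the UMIs, and the ratio stayed between 1.74 and 2.07 over 10 other ways of processing. Among these, the settings that alter only Mac repeat the main value in ECs. In Mac the diabetic level was 0.426 of the control level (0.344 to 0.522), with 111 UMIs in 34 of 229 cells against 604 in 109 of 510 cells. Fib-2, with most of the transcript, did not differ detectably, at a ratio of 1.04 (0.966 to 1.12), and Fib-1 gave 1.15 (0.955 to 1.39). The Fib-3 ratio of 1.48 (1.27 to 1.73) lay just under the size rule, and 1 diabetic cell held 29.6% of its UMIs. The VSMCs-2 ratio of 1.54 (1.19 to 2.01) lay just past it, but 71 of 253 diabetic UMIs were in 1 cell, and without the richest cell of each library it was no longer called. In MoDC 41 of 42 diabetic Cxcl1 UMIs were in 1 cell.

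In Fib-3, where Cxcl1 was highest, a UMI was present in 42 of 117 control cells (35.9%) and in 33 of 67 diabetic cells (49.3%, 36.8 to 61.8). A UMI was present in 34.8% of control Fib-2 cells (52 of 907 with at least 10) and in 34.3% of diabetic ones (35 of 533). In VSMCs-2, at median depths of 5547 and 6523 UMIs against 3770 and 3656 in Fib-2, the shares were 5.85% and 5.72%. After every cell was thinned to 1000 UMIs, 19.4% and 19.1% of Fib-2 cells still had one. The 2 Fib-2 pools were alike in the spread of Cxcl1 over cells as well as in its level.

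Cxcl2, its tandem neighbour, was a myeloid transcript. The Mac level was 2196 CPM in control cells (2140 to 2253, from 5745 UMIs) and 1392 CPM in diabetic cells (1324 to 1462, from 1572 UMIs), a ratio of 0.634 (0.599 to 0.670). A Cxcl2 UMI was present in 75.7% of control Mac cells and 52.8% of diabetic ones, and in 52.9% and 37.2% after thinning. In VSMCs-2, outside the myeloid lineage, the unthinned shares were 5.65% and 2.57%, and 0.605% and 0.584% after thinning. The cells without any UMI made up 24.3% of control and 47.2% of diabetic Mac cells, whereas those with 10 to 29 UMIs made up 18.6% and 16.2%, and those with at least 30 made up 10.6% and 6.11%. The libraries differed most in the share of Mac cells without Cxcl2.

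**Figure D4:**
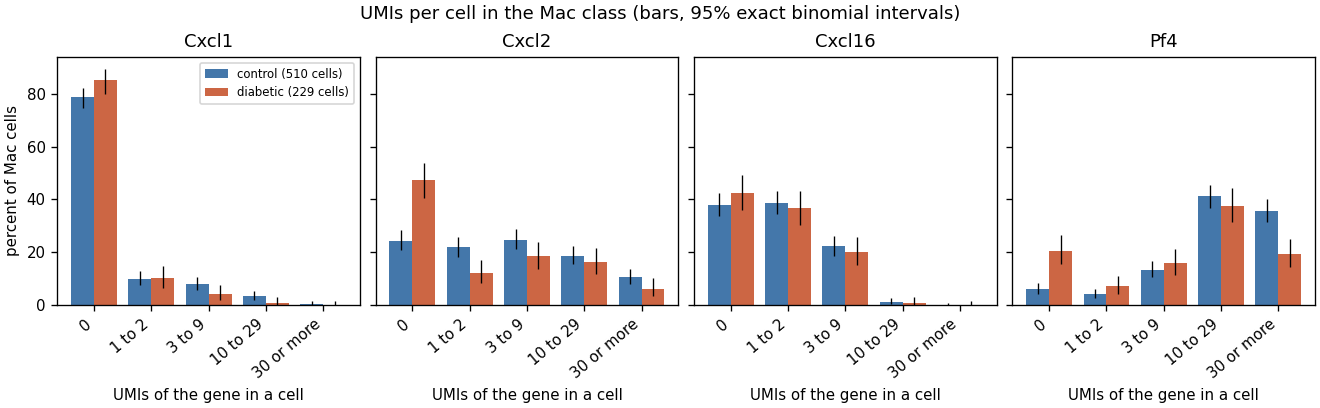
Percent of Mac cells (y axis) with 0, 1 to 2, 3 to 9, 10 to 29 or at least 30 UMIs (x axis) of 4 chemokines in control (blue, 510 cells) and diabetic (orange, 229 cells) libraries, with exact binomial 95% intervals. Cells without Cxcl2 are 24.3% and 47.2% of the libraries and cells without Pf4 5.88% and 20.5%, while the Cxcl16 bars lie close together.

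The Mac class itself differed between the libraries, and this touches every Mac value. The summed level of 5 macrophage markers in it was 16938 CPM in the control library against 9872 CPM in the diabetic one, a ratio of 0.583. Neutrophil markers summed to 3681 and 5277 CPM there, with S100a8 and S100a9 among them, and T cell markers to 320 and 616 CPM. At least 3 T cell marker UMIs were found in 79 of 510 control and 62 of 229 diabetic Mac cells. Under 10 macrophage marker UMIs were found in 15 and 53 cells.

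In the 390 control and 105 diabetic Mac cells with at least 10 macrophage marker UMIs and under 3 each of neutrophil and T cell markers, Cxcl2 was at 2551 and 2036 CPM and was no longer called. Cxcl1 in the same cells was at 255 and 146 CPM and was still called lower. Counted per 100 macrophage marker UMIs, all Mac cells had 13.0 Cxcl2 UMIs in control against 14.1 in diabetic cells, and 1.36 and 0.995 Cxcl1 UMIs. The Cxcl2 call in Mac was kept in 6 of 10 other ways of processing, among them the setting on cells outside Mac, which repeats the main value. The part of the mixed class in these differences was not tested otherwise.

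Cxcl1 and Cxcl2 were often in the same Mac cells. At 1000 UMIs per cell, Cxcl1 was found in 18.6% of control Mac cells with Cxcl2 (49 of 263) and in 2.99% of those without (7 of 234). In diabetic Mac cells the shares were 17.6% (13 of 74) and 0.800% (1 of 125). In Fib-2 the share of Cxcl1-positive cells with Cxcl2 was 6.25% in control and 6.86% in diabetic cells, against 2.46% and 1.86% of cells without Cxcl1. Cxcl16 was found in 45.9% of diabetic Mac cells with Cxcl2 (34.3 to 57.9) and 22.4% of those without (15.4 to 30.7). In control cells it was found in 29.7% (24.2 to 35.6) and 21.8% (16.7 to 27.6), intervals that overlap.

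Outside Mac, Cxcl2 reached 1204 CPM in control Foam cells and 2674 CPM in diabetic ones, but 57.2% of the 306 control UMIs were in 1 of 35 cells. MoDC had 885 and 707 CPM. In ECs the level was 102 and 76.1 CPM, a ratio of 0.750 (0.543 to 1.03), and in Fib-2 46.8 and 34.0 CPM, a ratio of 0.728 (0.545 to 0.965). VSMCs-2 had 12.2 and 4.37 CPM, a ratio of 0.358 (0.205 to 0.618), which was 0.966 and no longer called after thinning to 1000 UMIs. Few VSMCs-2 cells still held a Cxcl2 UMI after thinning, so that ratio is coarse. Fib-1 had 57.5 and 36.1 CPM, a ratio of 0.628 (0.293 to 1.26), from 30 and 12 UMIs. Macrophage markers were lower in the same classes, as given for Pf4 below, and their part in these Cxcl2 values was not tested. Of the compared classes, only Fib-3 was called higher, with 17 control and 58 diabetic UMIs, a ratio of 6.17 (3.54 to 11.3). There 93.1% of the diabetic UMIs were in 1 cell, and without the richest cell of each library the ratio was 0.824.

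Pf4, platelet factor 4, is stored in platelet granules and is also made by resident-type macrophages. In Mac its level was 4933 CPM in control cells (4848 to 5019, from 12905 UMIs) and 3270 CPM in diabetic cells (3165 to 3377, from 3694 UMIs). The ratio of 0.663 (0.639 to 0.688) lies only just past the size rule, and 5 of 10 other ways of processing ended the call. Among the 10, the setting on cells outside Mac repeats the main value here. A UMI was present in 94.1% of control and 79.5% of diabetic Mac cells, and at least 30 UMIs in 35.7% and 19.2%. Ppbp, another platelet chemokine, had 20 control UMIs in Mac and 1 diabetic UMI, and its part in the Pf4 values was not tested. Foam cells had 1070 and 1487 CPM of Pf4.

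Relative to other macrophage transcripts Pf4 was not lower. Mac cells had 33.4 Pf4 UMIs per 100 UMIs of the complement genes C1qa and C1qb in control (32.7 to 34.0) and 38.9 in diabetic cells (37.5 to 40.4). Per 100 macrophage marker UMIs the values were 29.1 and 33.1, a ratio of 1.14 in the other direction. In the Mac cells kept by the marker limits above, Pf4 was at 5474 and 4451 CPM. The lower Pf4 CPM of diabetic Mac stood beside a lower summed level of the macrophage markers.

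Pf4 was lower in diabetic cells in each of the other classes with enough UMIs. It was at 55.8 and 7.03 CPM in ECs (ratio 0.126, 0.0445 to 0.290), 80.5 and 15.1 CPM in Fib-1 (0.187, 0.0577 to 0.472) and 40.7 and 8.04 CPM in Fib-2 (0.197, 0.112 to 0.327). Fib-3 had 41.8 and 7.55 CPM (0.181, 0.0353 to 0.581) and VSMCs-2 21.6 and 7.87 CPM (0.365, 0.242 to 0.546). Macrophage markers moved alongside: their summed level in diabetic cells was 0.212 of control in ECs, 0.345 in Fib-1, 0.213 in Fib-2, 0.0896 in Fib-3 and 0.227 in VSMCs-2. Pf4 per 100 C1qa and C1qb UMIs was 39.9 and 46.2 in ECs, 39.9 and 56.7 in Fib-2, 27.8 and 75.0 in Fib-3 and 51.6 and 50 in VSMCs-1. Fib-1 had 65.6 and 45.5, with the control interval of 43.4 to 98.4 above that of Mac. VSMCs-2 had 32.8 and 75.0, with the diabetic interval of 49.8 to 112 above that of Mac. In cells without any macrophage marker UMI the ratio was 0.183 in ECs, 0.236 in Fib-1, 0.234 in Fib-2 and 0.371 in VSMCs-2. In Fib-3 it was 0.398, with an interval that includes 1 and too few UMIs for a call, and without the richest cell of each library too few were left as well.

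**Figure D5:**
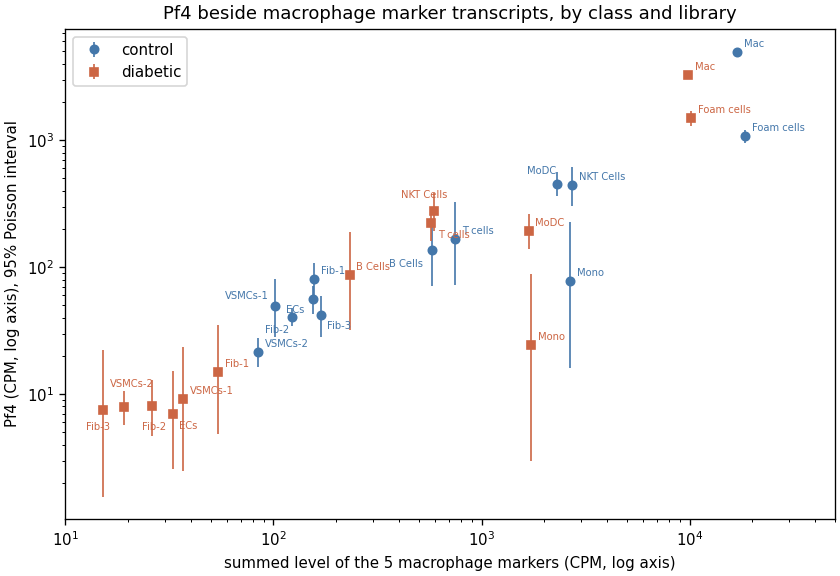
Pf4 level (y axis, CPM, log scale, 95% Poisson intervals) against the summed level of 5 macrophage markers (x axis, CPM, log scale) in each class of the control (blue circles) and diabetic (orange squares) library. The ECs, fibroblast and smooth muscle points of the diabetic library lie below and to the left of the control ones, and Foam cells lie below Mac at a like marker level.

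The interferon-linked ligands were scarce. Cxcl9 had 3 UMIs in control and 8 in diabetic annotated cells, 5 of the 8 in ECs, which is too few for a ratio. Cxcl10 had 120 and 141 UMIs. In ECs it had 11 UMIs in 7 control cells (10.1 CPM) and 32 UMIs in 14 diabetic cells (37.5 CPM), a ratio of 3.72 (1.83 to 8.19). The richest diabetic EC held 15.6% of the UMIs, and the ratio lay between 3.68 and 7.02 in 10 other ways of processing. Again the settings that alter only Mac repeat the main value. Fib-2 had 11.8 and 15.6 CPM, a ratio of 1.32 (0.812 to 2.13), and Mac had 13.0 and 17.7 CPM, a ratio of 1.36 (0.743 to 2.44). Both intervals include 1. Fib-2 was called higher under 2 of the other ways of processing, at 1.90 with every cell weighted equally and at 2.01 in cells without any macrophage marker UMI. Per 100 macrophage marker UMIs, Mac had 0.0767 and 0.179 Cxcl10 UMIs, a ratio of 2.34, which was called. In diabetic MoDC 86.4% of 22 Cxcl10 UMIs were in 1 cell.

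The EC pools differed in other ways that stand beside these values. Neutrophil markers in ECs summed to 10.1 CPM in control against 279 CPM in diabetic cells, although only 1 diabetic EC had at least 3 such UMIs. Lymphatic endothelial markers, which include Prox1 and Ccl21a, summed to 401 and 829 CPM, a ratio of 2.07. Adipocyte markers summed to 2.74 and 108 CPM, Schwann cell markers to 3.66 and 48.0 CPM, and monocyte and dendritic cell markers to 10.1 and 70.3 CPM. Macrophage markers went the other way, as given for Pf4. The endothelial markers themselves were at 6335 and 5870 CPM. The part of these in the EC chemokine levels was not tested.

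Cxcl12 was highest in Fib-1 and Fib-2. Fib-2 had 810 CPM in control (781 to 840) and 824 CPM in diabetic cells (786 to 864), a ratio of 1.02 (0.958 to 1.08), and a UMI was present in 70.7% and 67.4% of cells. In Mac, at median depths of 4506 and 4129 UMIs, the control share was 8.04%. Fib-1 had 773 and 906 CPM (1.17, 1.01 to 1.37), intervals that overlap those of Fib-2. VSMCs-1 had 219 and 232 CPM (1.06, 0.772 to 1.45) and VSMCs-2 had 78.7 and 90.2 CPM (1.15, 0.977 to 1.35). In these 4 classes diabetic and control levels lay within 1.2-fold of each other.

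Cxcl12 differed more in the other classes. Control Fib-3 had 188 CPM and diabetic Fib-3 385 CPM, a ratio of 2.05 (1.61 to 2.60), with a UMI in 45 of 117 and 37 of 67 cells. The ratio was 1.16 after thinning to 1000 UMIs. ECs had 124 and 198 CPM, a ratio of 1.59 (1.26 to 2.01), and 1 diabetic EC held 35.5% of the UMIs. The EC ratio was no longer called without the richest cell of each library, nor after thinning to 1000 UMIs. Mac had 25.6 and 5.31 CPM from 67 and 6 UMIs, a ratio of 0.207 (0.0735 to 0.476), while fibroblast markers in Mac summed to 364 and 308 CPM.

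Within Fib-2, Cxcl1 and Cxcl12 did not mark the same cells. At 1000 UMIs per cell Cxcl12 was found in 35.2% of control cells with Cxcl1 and 43.4% of those without, and in 37.3% and 42.7% of diabetic cells. The intervals of each pair overlap. In Fib-1 the shares were 34.3% and 38.0% in control and 43.9% and 43.8% in diabetic cells. No preference of Cxcl12 for Cxcl1-positive fibroblasts was detectable at this depth.

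Cxcl13, which draws B cells into follicles through Cxcr5, had 47 control and 41 diabetic UMIs. Of the control UMIs 26 were in Fib-3, in 6 cells, and 9 were in Mac, whereas in the diabetic library 3 were in Fib-3 and 32 in Mac. The Mac ratio was 8.23 (3.84 to 19.6), but 24 of the 32 UMIs were in 1 of 5 positive cells. Without the richest cells too few UMIs were left for a call. The Mac cells kept by the marker limits above held 9 control and 6 diabetic Cxcl13 UMIs, also too few. The lowest ratio over 10 other ways of processing was 2.54. Cxcl14, a chemokine of skin and other epithelia, had 15 control and 3 diabetic UMIs, 9 of them in control Fib-2, and gave no ratio in any class.

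Cxcl16 and Cx3cl1 are the transmembrane members. Cxcl16, which also acts as a scavenger receptor for oxidised lipoprotein, was at 325 CPM in control Mac (303 to 347) and 312 CPM in diabetic Mac (280 to 346), a ratio of 0.960 (0.846 to 1.09). A UMI was found in 62.0% and 57.6% of these cells, beside 5.65% and 3.04% of VSMCs-2. In CPM its level in Mac did not differ detectably while that of Cxcl2, Cxcl1 and Pf4 was lower. Per 100 macrophage marker UMIs, Cxcl16 was at 1.92 and 3.16, a ratio of 1.65 that was called higher. On that scale the ratios of Cxcl2 and Pf4 were 1.09 and 1.14, and that of Cxcl1 was 0.730, none of them called.

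Foam cells had the highest Cxcl16 level of any class, 1023 CPM in the control library (902 to 1155) with a UMI in 35 of 35 cells, and 522 CPM in the diabetic library (414 to 649) with a UMI in 14 of 17 cells. MoDC had 186 and 257 CPM. Fib-2 had 132 and 126 CPM (0.953, 0.817 to 1.11), Fib-1 113 and 99.3 CPM (0.878, 0.555 to 1.37) and ECs 72.3 and 89.0 CPM (1.23, 0.887 to 1.71). None of these 3 ratios left out 1. VSMCs-2 had 10.1 and 5.25 CPM, a ratio of 0.521 (0.301 to 0.906), in a class where macrophage markers were at 0.227 of control. Among VSMCs-2 without any macrophage marker UMI, Cxcl16 was still called lower. Fib-3 had 22.3 and 47.8 CPM from 16 and 19 UMIs, a ratio of 2.15 (1.05 to 4.46), which was 0.437 after thinning. Median depth in Fib-3 was 5882 and 5574 UMIs, so thinning to 1000 UMIs left few Cxcl16 UMIs and a coarse ratio.

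Cx3cl1, or fractalkine, was found in structural cells, with 1 and 4 UMIs in Mac. ECs had 50.3 and 62.1 CPM (1.23, 0.830 to 1.83), Fib-2 37.4 and 50.1 CPM (1.34, 1.03 to 1.74) and VSMCs-2 9.70 and 9.79 CPM (1.01, 0.627 to 1.66). It was called in none of them. No annotated cell held more than 5 UMIs. A UMI was present in 11.5% of control and 18.0% of diabetic ECs, and in 4.08% and 5.91% after thinning.

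Over all annotated cells, 8 members had enough UMIs and 3 were lower, where 11.2% of genes were (10.1% with the interval leaving out 1). None was higher, beside 10.3% and 8.95% of genes. These were Pf4 at 1104 and 349 CPM (0.316), Cxcl2 at 533 and 203 CPM (0.382) and Cxcl16 at 147 and 79.7 CPM (0.541). Mac made up 16.7% of control and 9.07% of diabetic annotated cells. When class levels were combined with the same class make-up in both libraries, the ratios were 0.650 for Pf4, 0.711 for Cxcl2 and 0.935 for Cxcl16, and only Pf4 was still called. The median log2 ratio of the 8 members was -0.42, beside 0.02 over all genes.

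The receptors of these ligands lay partly in other cells and partly in the classes that held the ligand. Cxcr4, the receptor of Cxcl12, was at 68.4 and 82.3 CPM in Mac. The scavenger Ackr3, which also binds Cxcl12, was at 982 CPM in control and 534 CPM in diabetic Fib-3 (0.543, 0.464 to 0.634). In ECs Ackr3 was at 214 and 124 CPM (0.580, 0.457 to 0.733), and in VSMCs-2 at 8.26 and 3.67 CPM (0.444). In both ECs and Fib-3, then, Cxcl12 was called higher and Ackr3 lower, from the same pools. Neither Cxcl12 call held after thinning to 1000 UMIs. Cxcr6, the receptor of Cxcl16, was at 273 and 615 CPM in NKT cells, and in Mac at 13.4 and 34.5 CPM (2.58, 1.59 to 4.20). Cx3cr1 was at 49.3 and 36.3 CPM in Mac and 130 and 91.3 CPM in Foam cells. Cxcr5 was at 102 and 145 CPM in B cells, and Cxcr2 had 13 and 7 UMIs in Mac.

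Of 11 receptors, 1 of 3 with enough UMIs was lower in ECs, 2 of 3 in Fib-3 (Ackr3 and Ackr1, the latter at 0.417) and 1 of 1 in VSMCs-2, and 1 of 3 was higher in Mac. The background was 8.53% lower in ECs, 13.6% in Fib-3 and 5.69% in VSMCs-2, and 13.9% higher in Mac, and so few receptors were measured that these shares are coarse. Of 5 other CXC chemokine genes listed in the files, Cxcl3 was higher in Mac, at 24.1 and 74.4 CPM (3.09, 2.20 to 4.35), and Cxcl5 was lower in Fib-2, at 11.3 and 3.78 CPM (0.335). Cxcl3 thus went the other way from Cxcl2 in Mac, with the shared sequence of the pair in mind. Of 12 genes tied in different ways to chemokine shedding, cleavage or presentation, 2 of 9 were higher and 2 lower in Mac, beside 13.9% and 9.37% of genes. Among the lower was the heparan sulphate proteoglycan Sdc4, at 385 and 249 CPM (0.647). In Fib-3 2 of 8 were lower, beside 13.6% of genes: Dpp4, a protease that trims Cxcl10 and Cxcl12, at 0.351, and Adam10, a sheddase of Cxcl16 and Cx3cl1, at 0.482 with an interval that includes 1 (0.191 to 1.08). In ECs none of 7 was called (background 8.22% higher and 8.53% lower), and in Fib-2 none of 9 (8.59% and 6.17%). In Fib-1 1 of 6 was higher and 1 lower, beside 7.86% and 11.9% of genes. In VSMCs-2 1 of 10 was higher and 1 lower, near the background of 8.63% and 5.69%.

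A list of 16 NF-kappaB pathway genes and inflammatory cytokines did not follow the CXC and CX3C members in every class. In Fib-2, where no CXC or CX3C member was called higher, 7 of 14 genes of this list were, beside 8.59% of all genes. Bcl3 (2.02), the CC chemokine Ccl7 (1.78), Il6 (1.74) and Tnfaip3 (1.67, with an interval that includes 1) were the largest. The median log2 ratio was 0.62. In Mac 4 of 15 were higher, with Il6 at 2.32 and Il1b at 1.65, and 1 was lower, the monocyte chemokine Ccl2 at 0.649, beside 13.9% and 9.37% of genes. In ECs 1 of 8 was higher (Nfkbiz, 2.14) and 1 lower (Ccl7, 0.384), near the background of 8.22% and 8.53%. Fib-1 and Fib-3 each had 3 of 9 higher, where 7.86% and 8% of genes were, and VSMCs-2 had 3 of 11 lower, where 5.69% were. None of 3 was called in VSMCs-1 (background 8.74% higher and 10.4% lower).

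Of 14 interferon response genes, 1 of 11 was higher in ECs, the regulator Irf7 at 3.74 (2.37 to 6.09), a share near the 8.22% of all genes. In Mac 2 of 11 were higher (Ifit3 and Ifit1) and 2 lower (Gbp2, and Iigp1 with an interval that includes 1), beside 13.9% and 9.37% of genes. None of 11 was called in Fib-2 (background 8.59% higher and 6.17% lower) and none of 4 in Fib-1 (7.86% and 11.9%). In Fib-3 1 of 4 was higher (Irf7) and 1 lower (Gbp2), beside 8% and 13.6% of genes, and both intervals include 1. In VSMCs-2 1 of 6 was higher, beside 8.63% of genes. Of 10 immediate early genes, which include AP-1 subunits, 4 were higher in ECs: Ier2 (2.41), Junb (2.06), Fosb (1.66) and Dusp1 (1.55), beside 8.22% of genes. In VSMCs-1 3 were higher (background 8.74%) and in Fib-2 2 (8.59%). In each of the other classes 1 was higher, a share near the background, and none was lower.

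The level pattern of each member over 22 class-by-library pools with at least 20 cells was set beside that of 9997 genes, by Pearson's r of log2(CPM + 1). The pools share 2 libraries and differ in depth, so r is a description. Pf4 was most like the macrophage genes C1qb (0.977), C1qa and Folr2. Cxcl2 was most like Pla2g7 (0.917), Cd300c2 and Clec4a1, and Cxcl16 like Dab2 (0.895), Pltp and Smpdl3b. Cxcl12 was closest to Nbl1 (0.937), Fam114a1 and Nnmt, Cx3cl1 to Plvap (0.969), Ptprk and Cdc42ep1, and Cxcl1 to Serpina3n (0.861), Acap3 and Angptl4. Cxcl10 was closest to Nek6 (0.846), Mb21d1 and Oasl2. Among the members, Cxcl2 and Cxcl16 had the highest r (0.86), followed by Cxcl12 and Cx3cl1 (0.82), while for the tandem neighbours Cxcl1 and Cxcl2 it was 0.17.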

How the data were processed

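Aortic cells were profiled with 10x Genomics single cell 3' chemistry in 1 control and 1 diabetic library. The values deposited by the authors are raw UMI counts, 1 row per gene. Cell Ranger 3.1.0, mm10 and Partek are named in the submitters' processing notes. The annotation release, strand setting, doublet treatment and barcode filter are not given in the sources used here, and no doublet caller was run. The cell classes are the authors' deposited annotation. Barcodes without a class, 2 diabetic ones listed as N/A among them, were left out.

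UMIs were summed per class and library and divided by all UMIs of that pool (CPM), with exact Poisson 95% intervals. Ratios have exact conditional binomial intervals and shares of cells exact Clopper-Pearson intervals. A ratio was called at 30 UMIs or more over both libraries and 1.5-fold or more. Where a pool had no UMI, 3 UMIs served as its floor. PCR and capture add variation that these intervals do not cover. With 1 library per group no test across mice was possible. Named genes were all 10 members, up to 4 called genes per list and class, and the 3 most similar genes per member. Members and lists were chosen with earlier results of these data known. The calculation was tested on simulated data. Python 3.11.15, scipy 1.17.1 and edgeR 4.0.16 (for TMM scaling only) were used. Alternatives varied scaling, depth, cell weights, minimums, fold, single cells and pool make-up.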

Additional observations from a re-analysis of the deposited data

Results flagged for a closer look

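Some members were past the 1.5-fold size rule in opposite directions in different classes of the same libraries, and the differences between classes were not tested. The ratio of diabetic to control Cxcl1 was 1.86 in ECs and 1.54 in VSMCs-2 but 0.426 in Mac. The VSMCs-2 call was lost without the richest cell of each library. For Cxcl2 the ratio was 6.17 in Fib-3 but 0.628 in Fib-1, 0.634 in Mac and 0.358 in VSMCs-2. The Fib-3 value fell to 0.824 without the richest cell of each library, and the VSMCs-2 value was 0.966 and no longer called after thinning to 1000 UMIs. For Cxcl12 the ratio was 1.59 in ECs and 2.05 in Fib-3 but 0.207 in Mac, and for Cxcl16 2.15 in Fib-3 but 0.521 in VSMCs-2. After thinning, Cxcl12 was no longer called in ECs or Fib-3, and Cxcl16 in Fib-3 was at 0.437. Thinning left few UMIs of Cxcl2 in VSMCs-2 and of Cxcl16 in Fib-3, so these thinned ratios are coarse. The Cxcl12 call in Mac and the Cxcl16 call in VSMCs-2 were kept.

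Barcodes to which the authors gave no class (1155 control and 934 diabetic) also held chemokine UMIs, above the level that 3 UMIs would give. In the control library they held Pf4 at 2004 CPM, Cxcl2 at 779, Cxcl1 at 215, Cxcl16 at 206, Cxcl12 at 148, Cx3cl1 at 16.4, Cxcl13 at 9.92 and Cxcl10 at 8.55 CPM. In the diabetic library they held Pf4 at 424 CPM, Cxcl2 at 236, Cxcl16 at 68.6, Cxcl12 at 32.7, Cxcl1 at 29.9, Cx3cl1 at 6.02, Cxcl10 at 1.38 and Cxcl9 at 0.688 CPM. A Pf4 UMI was present in 79.9% of these control barcodes and 12.8% of the diabetic ones. Haemoglobin made up 7.32% of their control and 59.3% of their diabetic UMIs. Within the quality limits of the annotated cells lay 902 control and 9 diabetic barcodes.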

How the results depend on the processing

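The count of 8 pairs higher was 5 with cells thinned to 1000 UMIs, 4 with a minimum of 100 UMIs, 5 with a 2-fold rule, 3 without the cell richest in the gene and 5 without the 2% deepest cells. The count of 12 pairs lower was 19 with a minimum of 10 UMIs and 5 with one of 100 UMIs. Over all annotated cells, the count of 0 members higher was 1 with every cell weighted equally, 1 with a minimum of 10 UMIs and 2 with the same class make-up, which also left 1 of 3 members lower. The other settings kept these counts within 1.5-fold. For thinned cells the minimum of 30 UMIs was taken from the counts before thinning, so a thinned ratio can rest on fewer UMIs. Of single ratios, Cxcl2 in Fib-3 turned to 0.824 without the richest cell and 0.434 without the deepest cells. Cxcl16 in Fib-3 turned to 0.437 with thinning, which left few UMIs. Relative to macrophage markers, Cxcl2 in Mac turned to 1.09 and Pf4 in Mac to 1.14. The 4 settings on Mac cells, marker-free cells, shared barcodes and marker-relative levels were chosen after seeing the data. The calls kept in all 10 alternatives to the ratio were Cxcl1, Cxcl10 and Pf4 in ECs, Pf4 in Fib-1, Fib-2 and VSMCs-2, Cxcl12 in Mac and Cxcl16 in VSMCs-2. The settings of the minimum and the fold are not among the 10. Of these calls, Cxcl1 in ECs (1.86) and Cxcl16 in VSMCs-2 (0.521) missed the 2-fold rule. Only Cxcl1 in ECs and Pf4 in Fib-2 and VSMCs-2 reached the minimum of 100 UMIs. The settings on Mac cells and on marker-relative levels altered only Mac, and that on marker-free cells altered only the other classes. Where a setting altered nothing it repeated the main value, so fewer than 10 could end a call. The cause of each change was not tested, beyond what the setting removes. No paired analysis was possible because each group is 1 library of pooled mice.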
